A study of Mus musculus with 3 samples.

Results

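A set of 8 genes that carry glutamate, GABA and glutamine across membranes, or turn glutamate into glutamine, were followed across the cell types of the mouse lumbar spinal cord. The members were Slc1a1, Slc1a2, Slc1a3, Glul, Slc6a11, Slc7a11, Slc38a1 and Slc38a3, chosen by gene symbol, and all 8 were found among the 31040 genes of the count table. Raw unique molecular identifiers (UMIs, each counted once per captured transcript) were summed for each gene over the nuclei of one mouse and one cell type. Levels are given as UMIs of the gene per 1000000 UMIs of that sum (CPM). A CPM was compared between cell types and mice within a gene, not between genes, because it is not corrected for transcript length.

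The study profiled single nuclei from the lumbar cord of 12 mice aged 90 days. Of these, 6 mice were SOD1G93A, of the strain B6.Cg-Tg(SOD1*G93A)1Gur/J, which carries a high-copy transgene of human SOD1 with the G93A substitution and is used as a model of amyotrophic lateral sclerosis. The other 6 were wild-type (WT) littermates on C57BL/6J without the transgene. Each genotype had 3 females and 3 males, and the mice were tagged with hashtag antibodies and loaded in 3 pools, each with 1 mouse of every sex and genotype. The study used 1 hashtag per combination of sex and genotype, so hashtag and group cannot be told apart. The transgene is driven by the human SOD1 promoter and is not restricted to one cell type, so glia and neurons of the SOD1G93A mice both carry it.

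Glutamate and GABA released at synapses are cleared mainly by astrocytes. Slc1a2 (GLT-1, EAAT2) and Slc1a3 (GLAST, EAAT1) encode the main astrocytic glutamate transporters, Slc1a1 (EAAC1, EAAT3) encodes the transporter best known from neurons, and Slc6a11 (GAT3) encodes an astrocytic GABA transporter. Inside the astrocyte, glutamine synthetase (Glul) converts glutamate to glutamine, which leaves through the exporter SNAT3 (Slc38a3) and enters neurons through carriers such as SNAT1 (Slc38a1). The exchanger xCT (Slc7a11) releases glutamate in return for cystine, from which glutathione is made. Loss of GLT-1 from the ventral horn is a known feature of late disease in this model and in patients.

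The files held 14662 nuclei and 206486779 UMIs, with 548 to 2259 nuclei and 6411715 to 36668441 UMIs per mouse. Of 14647 distinct barcodes, 15 occurred in more than 1 pool. The cell types were those annotated by the study, and each of the 10 types held the highest summed level of its own markers. The label was weakest for microglia: their markers Cx3cr1, Csf1r and Ptprc summed to 38.8 to 122 CPM per mouse, while the neuronal markers Grin1, Rbfox3 and Camk2a summed to 386 to 644 CPM in the same nuclei. These nuclei were also deep, with a median of 46927 UMIs against 5338 in astrocytes. Schwann and meningeal nuclei were the shallowest of the cell types, with a median of 1584 UMIs. All counts are of nuclear RNA, so a lower level cannot be told apart from less RNA retained in the nucleus.

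On GRCm38 the members lie apart from each other. Chromosome 15 holds both Slc1a3, at chr15:8634124-8710764 on the minus strand, and Slc38a1, at chr15:96571418-96642913 on the minus strand. Slc1a2 spans chr2:102658659-102790784, Slc6a11 chr6:114131241-114249952, Glul chr1:153899944-153909723 and Slc1a1 chr19:28835049-28913960, all on the plus strand. Slc7a11 spans chr3:49892526-50443614 and Slc38a3 chr9:107650634-107669530, both on the minus strand. Reads were counted over exons and introns of each gene.

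**Figure D1:**
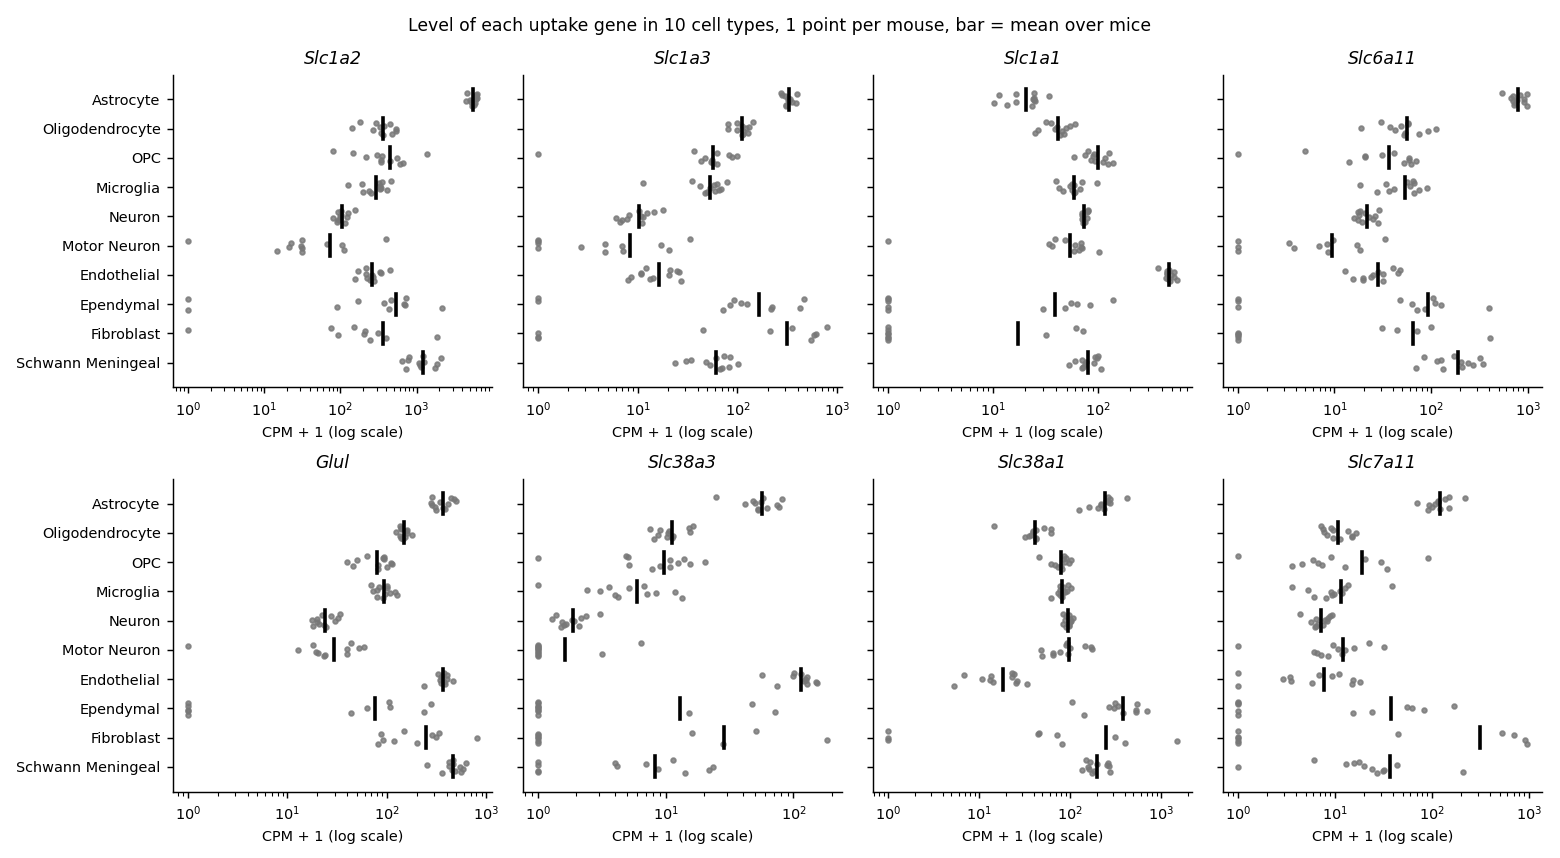
Level of each of the 8 genes in 10 cell types, as CPM + 1 on a log axis, with a point for each mouse and a bar for the mean. Slc1a2 and Slc6a11 were highest in astrocytes, at means of 5547 and 789 CPM, Slc1a1 was highest in endothelial cells at 474 CPM, and Slc38a3 also peaked in endothelial cells at 114 CPM.

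Astrocytes had the highest level of both Slc1a2 and Slc6a11, and in each case the gap to the next cell type was seen in every mouse. Slc1a2 stood at 5547 ± 635 CPM in astrocytes (SD, n = 12 mice), 4.61-fold above the next type, the Schwann and meningeal nuclei at 1204 ± 472 CPM (SD, n = 12). Below these came ependymal cells at 529 ± 612 CPM (SD, n = 11), oligodendrocyte precursors (OPC) at 449 ± 335 and oligodendrocytes at 357 ± 127 CPM, whose ranges over mice overlapped. Fibroblasts were at 357 ± 547 CPM (SD, n = 10). Neurons were at 105.6 ± 20.5 CPM and motor neurons at 71.4 ± 109 CPM (SD, n = 12 each). Of all Slc1a2 UMIs, 63.3% lay in astrocyte nuclei, which were 1555 of the 14662 nuclei.

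Slc6a11, the GABA transporter, followed the same order at its upper end. Its level was 789 ± 140 CPM in astrocytes and 189.8 ± 89.8 CPM in Schwann and meningeal nuclei (SD, n = 12 each), a 4.16-fold gap. Neurons and motor neurons were at the bottom, at 20.5 and 8.38 CPM. Astrocytes held 58.4% of its UMIs. Across the 10 cell types the log2 levels of Slc1a2 and Slc6a11 correlated with r = 0.99, the closest pair among the members. This value describes 10 types that share libraries and depth.

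Detection differed between astrocytes and neurons at equal depth as well. Slc1a2 had at least 1 UMI in 100% of astrocyte nuclei and in 58.8% of neuronal nuclei, at median depths of 5338 and 12864.5 UMIs. After every nucleus was thinned to 1000 UMIs, the shares were 97.8% of 1552 astrocyte nuclei and 9.87% of 8777 neuronal nuclei. For Slc6a11 the thinned shares were 54.6% and 2.16%, against 93.1% and 19.7% before thinning. Slc1a3 was found in 26.6% and 0.729% of the thinned nuclei, and in 64.4% and 7.61% before.

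Free RNA in a suspension of nuclei adds UMIs of abundant genes to every droplet. The ratio of Slc1a2 to Slc6a11 UMIs, over all mice, was 7.25 in astrocytes and ran over the other 9 types from 5.18 in neurons to 9.84 in endothelial cells, with 6.53 in oligodendrocytes and 9.09 in OPC. As a mean over mice it was 7.19 ± 1.28 in astrocytes (SD, n = 12), 5.24 ± 0.826 in neurons (SD, n = 12) and 12.1 ± 6.71 in OPC (SD, n = 11), and in fibroblasts it was 1.6 ± 1.19 (SD, n = 5) from 43 Slc1a2 UMIs. The ratio of Slc1a2 to Slc1a3 was 17.1 in astrocytes and ran over the other 9 types from 0.506 in fibroblasts to 21.8 in Schwann and meningeal nuclei, with 3.24 in oligodendrocytes and 12.4 in neurons. The part of free RNA in the levels outside astrocytes was not tested.

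Slc1a3 was not an astrocyte gene alone in these nuclei. It averaged 325 ± 36.8 CPM in astrocytes (SD, n = 12), 313 ± 303 CPM in fibroblasts (SD, n = 10) and 164 ± 156 CPM in ependymal cells (SD, n = 11), and the ranges of the 3 types overlapped. Oligodendrocytes were at 110.3 ± 19.4 CPM (SD, n = 12), endothelial cells at 15.4 CPM and neurons at 9.33 ± 3.48 CPM. The fibroblast and ependymal values rest on 46 and 93 nuclei. Astrocytes held 40.7% of the Slc1a3 UMIs and oligodendrocytes 25.3%.

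Slc1a1, the transporter best known from neurons, was highest in endothelial cells. Its level there was 474 ± 49.7 CPM, 4.84-fold above OPC at 97.8 ± 24.1 CPM, and it was higher in 12 of 12 mice. Neurons were at 73.0 ± 4.00 CPM and astrocytes at 19.7 ± 6.99 CPM (SD, n = 12 each). Because neurons were 8800 of the nuclei, they still held 68.4% of the Slc1a1 UMIs, against 14.2% for endothelial cells. At 1000 UMIs per nucleus, Slc1a1 was seen in 35.3% of endothelial and 1.42% of astrocyte nuclei, and in 84.8% and 8.5% before thinning.

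The gene of glutamine synthesis was shared between astrocytes, endothelial cells and Schwann and meningeal nuclei. Glul, glutamine synthetase, was at 469 ± 102 CPM in Schwann and meningeal nuclei, 366 ± 76.7 CPM in astrocytes and 365 ± 53.8 CPM in endothelial cells (SD, n = 12 each), and these ranges overlapped. Fibroblasts, at 248 ± 222.5 CPM (SD, n = 10), overlapped endothelial cells. Oligodendrocytes at 147 ± 15.7 CPM and microglia at 93.1 CPM, the next type down, were apart by more than their SDs. Neurons were lowest, at 23.2 ± 5.52 CPM.

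Slc38a3, the glutamine exporter SNAT3, was at 114 ± 28.0 CPM in endothelial cells and 55.6 ± 15.8 CPM in astrocytes (SD, n = 12 each), a 2.04-fold gap that 11 of 12 mice showed. Neurons and motor neurons were near the floor, at 0.873 and 0.631 CPM. Astrocytes and endothelial cells held 36.1% and 35.2% of its UMIs.

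Slc38a1, the glutamine carrier SNAT1, was found in neurons as well as glia. Ependymal cells were at 382 ± 186 CPM (SD, n = 11), astrocytes at 243 ± 74.2 CPM and Schwann and meningeal nuclei at 199 ± 51.8 CPM (SD, n = 12 each). Fibroblasts, at 249 ± 470 CPM (SD, n = 10), overlapped these types. Motor neurons at 97.1 ± 43.1 CPM and other neurons at 94.4 ± 7.48 CPM could not be ordered, since their ranges overlapped. Endothelial cells were lowest, at 17.3 ± 8.83 CPM. Neurons held 70.2% of its UMIs and astrocytes 12.1%.

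Slc7a11, the cystine and glutamate exchanger, was at 122 ± 38.7 CPM in astrocytes (SD, n = 12) and at 317 ± 416 CPM in fibroblasts (SD, n = 10), with overlapping ranges. Ependymal and Schwann and meningeal nuclei followed at 36.9 and 35.8 CPM, and neurons were lowest at 6.20 ± 1.48 CPM. Astrocytes held 43.8% of its UMIs.

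The genes whose levels ran most like each member across the 10 types were named by Pearson correlation of log2 levels, among 7700 genes compared. For Slc1a2 these were Fgfr3 (r = 0.99), Acsl3 (0.98) and Gpr37l1 (0.97), and for Slc6a11 they were Fgfr3 (0.98), Acsl3 (0.97) and Ttyh1 (0.97). Slc1a3 ran most like Gramd3, Rgma and Gli2, each with r = 0.96. Glul ran with Npc2 (r = 0.94), Prdx1 (0.93) and Ppp2r5a (0.93), and Slc7a11 with Pdpn (0.96), Nadk2 (0.96) and Tmem55a (0.94). For Slc38a1 the closest were Slc20a1 (r = 0.93), Arhgef4 (0.92) and Rnf182 (0.91), for Slc38a3 they were Tor1aip1 and Stard8 (0.97 each) and Sox13 (0.96), and for Slc1a1 they were Ly75 (0.91), Stx3 (0.91) and St8sia4 (0.90). These are descriptions over 10 types that share libraries.

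**Figure D2:**
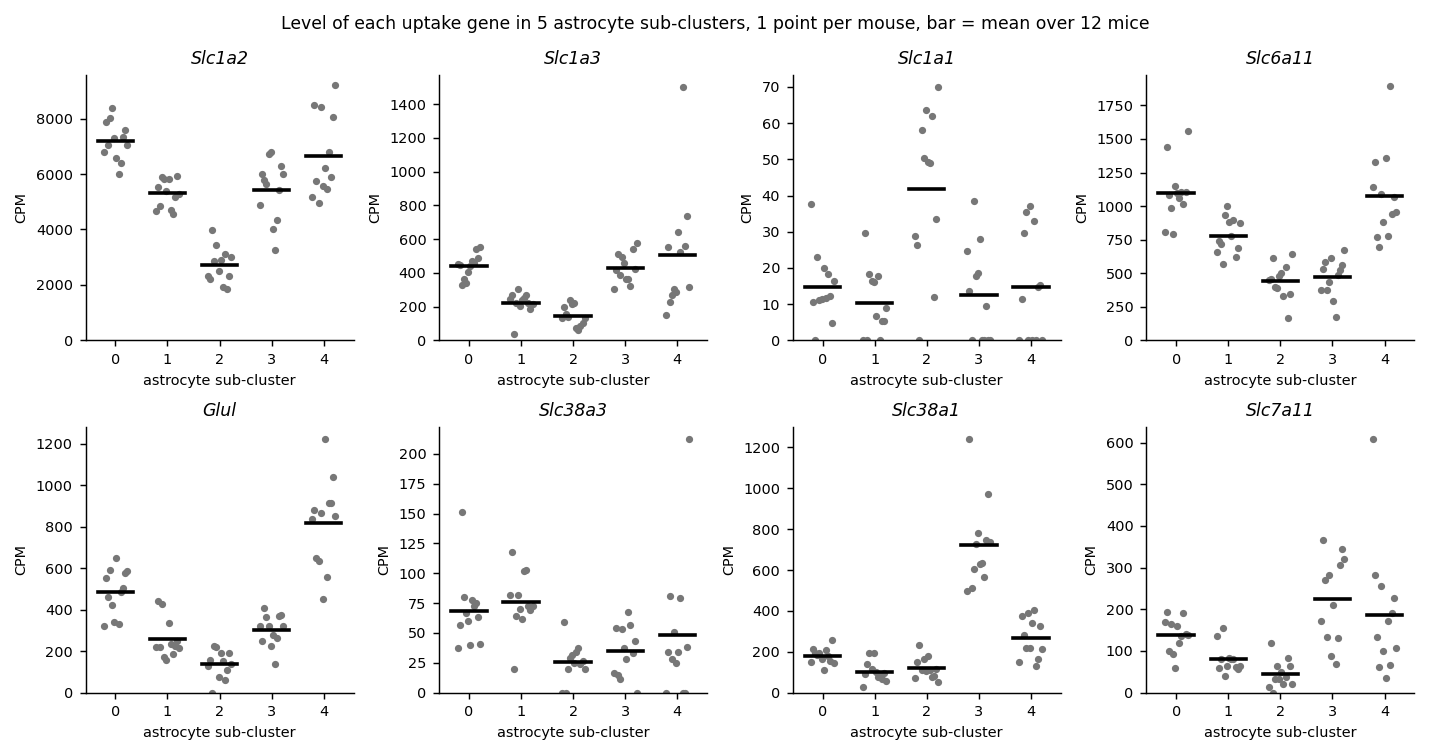
Level of the 8 genes in the 5 astrocyte sub-clusters of the study, as CPM on axes that start at 0, with a point for each mouse and a bar for the mean. Slc1a2 was lowest in sub-cluster 2 at a mean of 2705 CPM, Slc38a1 was highest in sub-cluster 3 at 721 CPM, and Glul was highest in sub-cluster 4 at 817 CPM. Sub-cluster 4 also held the oligodendrocyte marker Mbp, at means of 5131 CPM in WT and 4048 CPM in SOD1G93A mice after scaling between libraries.

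The study split astrocytes into 5 sub-clusters, numbered 0 to 4, with 524, 438, 220, 195 and 178 nuclei. The members differed among them in distinct ways, which is described here without a test because the sub-clusters were formed on expression in these same nuclei. Slc1a2 was at 7207 ± 702 CPM in sub-cluster 0 and 6670.4 ± 1489 CPM in sub-cluster 4, while sub-cluster 2 stood lowest at 2705 ± 638 CPM, below all other sub-clusters in 12 of 12 mice. The neuronal markers Grin1, Rbfox3 and Camk2a summed to a mean of 422 CPM in sub-cluster 2, against 53.0 to 224 CPM in the other sub-clusters, and their part in its levels was not tested. Slc6a11 had a like order at the top, with 1101 CPM in sub-cluster 0 and 1074 CPM in sub-cluster 4, but stood at 469 CPM in sub-cluster 3 and 441 CPM in sub-cluster 2.

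Slc1a3 was higher in sub-clusters 4, 0 and 3, at 506, 441 and 429.8 CPM, than in sub-clusters 1 and 2, at 221 and 145 CPM. Glul was highest in sub-cluster 4, at 817 ± 213 CPM, above sub-cluster 0 at 484 ± 113 CPM in 12 of 12 mice. In sub-cluster 4 the oligodendrocyte marker Mbp averaged 5131 CPM in WT and 4048 CPM in SOD1G93A mice, after scaling between libraries. Its means in the other sub-clusters ran from 225 to 1650 CPM. The median mitochondrial share per mouse was 1.79% to 7.70% in sub-cluster 4 and 0.239% to 3.93% in the others. Their part in the levels of sub-cluster 4 was not tested. Slc38a1 was highest in sub-cluster 3, at 721 ± 210 CPM, against 267 ± 97.5 CPM in sub-cluster 4, 179.7 ± 38.3 in sub-cluster 0, 121 ± 52.0 in sub-cluster 2 and 102 ± 51.1 in sub-cluster 1. Slc7a11 was at 224 ± 104 CPM in sub-cluster 3 and 186 ± 155 CPM in sub-cluster 4. These overlapped, and 9 of 12 mice were higher in sub-cluster 3. Sub-cluster 2 was lowest in Slc7a11, at 44.5 CPM. Slc38a3 was at 76.3 CPM in sub-cluster 1, 68.5 in sub-cluster 0, 48.5 in sub-cluster 4, 34.6 in sub-cluster 3 and 25.5 CPM in sub-cluster 2. Slc1a1 was low throughout, at 41.9 CPM in sub-cluster 2 and 10.4 to 14.7 CPM in the others.

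The central comparison of the design is SOD1G93A against WT within a cell type. Each gene was tested with limma-voom on the sums per mouse, with sex, genotype and pool in the fit, and called at a Benjamini-Hochberg adjusted p (FDR) below 0.1 over all genes tested in that cell type. The levels quoted per mouse in these comparisons are CPM after scaling between libraries.

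In astrocytes 1 of the 8 members changed, Slc38a1, which was higher in SOD1G93A mice. Over all 9347 genes tested in astrocytes, 214 were called, or 2.29%, of which 129 (1.38% of genes) were higher and 85 (0.909%) lower. With unscaled library sizes the split was 205 higher and 65 lower. The members' median log2 fold change was 0.08, beside 0.02 over all genes, with 5 members positive and 3 negative.

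**Figure D3:**
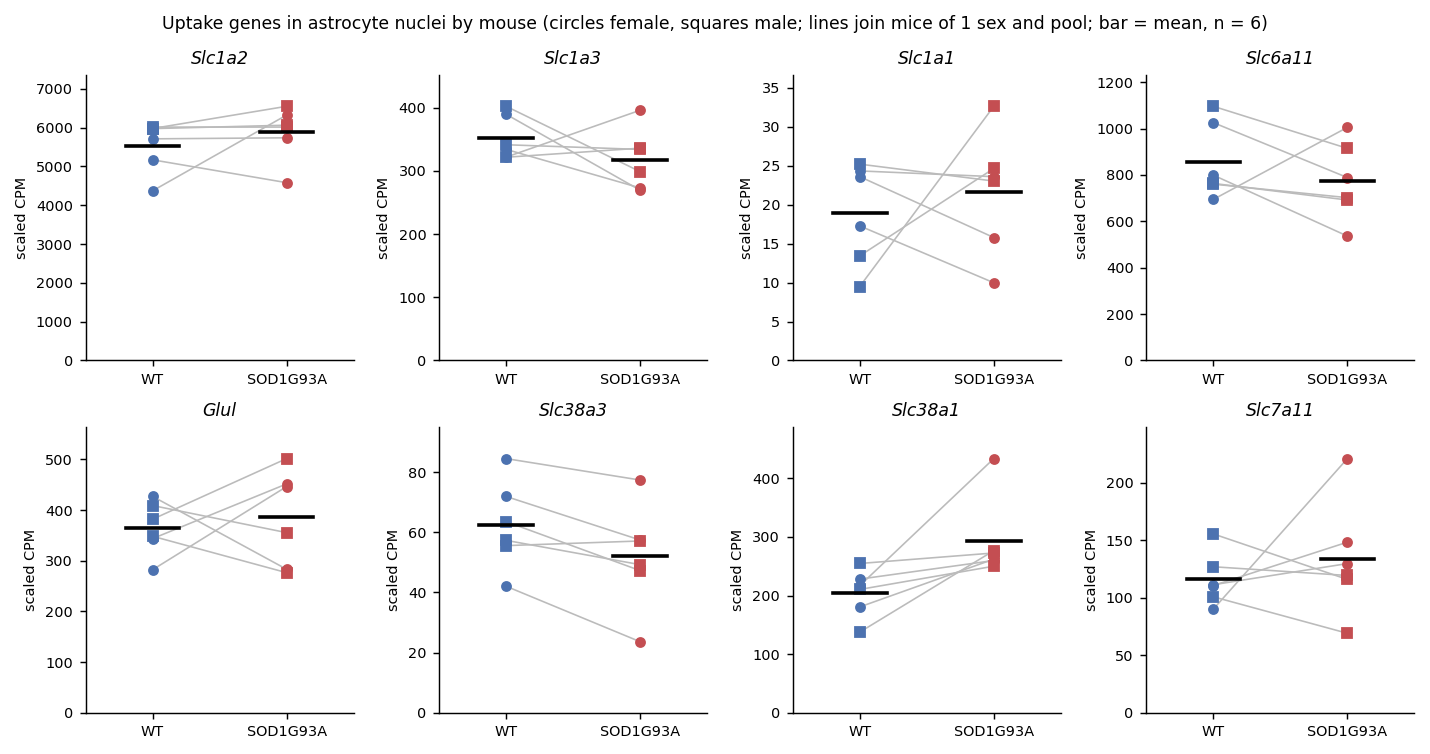
Level of the 8 genes in the astrocytes of each mouse, as scaled CPM on axes that start at 0, for 6 WT and 6 SOD1G93A mice, with bars for the group means. Slc38a1 lay between 138 and 255 CPM in WT and between 250.0 and 434 CPM in SOD1G93A mice, whereas the groups of the other members overlapped broadly.

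Slc38a1 lay at 138, 214 and 255 CPM (lowest, median and highest) in the 6 WT mice and at 250.0, 267 and 434 CPM in the 6 SOD1G93A mice. The groups overlapped through a single WT mouse, and the SOD1G93A mouse of a pair was higher in 6 of 6 pairs of the same sex and pool, as was the case for 4.64% of all genes. The log2 fold change was 0.51 ± 0.13 (SE, n = 6 against 6), or 1.43-fold with a 95% interval of 1.18 to 1.72, and limma gave an FDR of 0.0524. It was 0.61 in females and 0.41 in males. Without the pool term limma gave an FDR of 0.142, which ends the call. The call was also lost when any of 5 single mice was left out, with FDRs of 0.121 without the WT female and 0.236 without the WT male of pool C, 0.175 without the SOD1G93A female of pool B, 0.108 without the SOD1G93A male of pool A and 0.187 without the SOD1G93A male of pool C.

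The other members of the astrocyte set did not pass, and the intervals show how large a change could have gone unseen. Slc1a2 lay at 4372, 5844 and 6015 CPM (lowest, median and highest) in WT and at 4583, 6040.0 and 6551 CPM in SOD1G93A mice, with a log2 fold change of 0.09 (95% interval -0.11 to 0.29) and a limma FDR of 0.737. As a percentage, that interval runs from -7.45% to 22.7%. The level was higher in SOD1G93A in 5 of 6 pairs, and the groups overlapped over most of their range.

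Slc1a3 lay at 322, 338 and 402 CPM in WT and at 269, 317 and 396 CPM in SOD1G93A mice. Its log2 fold change was -0.14 (95% interval -0.40 to 0.11) with a limma FDR of 0.655. Slc6a11 had a log2 fold change of -0.14 (-0.40 to 0.12) and was higher in SOD1G93A in 1 of 6 pairs. Slc38a3 had -0.27 (-0.67 to 0.13), also higher in 1 of 6 pairs. Glul was at 0.07 (-0.26 to 0.40) and Slc7a11 at 0.19 (-0.11 to 0.50). Slc1a1 had the widest interval, at 0.33 (-0.21 to 0.87).

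The shares of the astrocyte sub-clusters stood beside the Slc38a1 difference as follows. Sub-cluster 3, where Slc38a1 was highest, made up 7.56%, 8.65% and 12.0% of astrocyte nuclei in WT mice (lowest, median and highest) and 13.4%, 17.5% and 31.1% in SOD1G93A mice, with no overlap. Sub-cluster 1, where the mean Slc38a1 level was 102 CPM, made up 26.9% to 42.6% in WT and 4.81% to 21.6% in SOD1G93A mice, lower in 6 of 6 pairs. For sub-cluster 4, second highest in Slc38a1, the shares were 2.63% to 17.6% in WT and 7.87% to 33.3% in SOD1G93A mice. They were higher in SOD1G93A in 4 of 6 pairs. The sub-clusters were formed on expression in these same nuclei, so the shares are given without a test, and their part in the Slc38a1 difference was not tested.

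**Figure D4:**
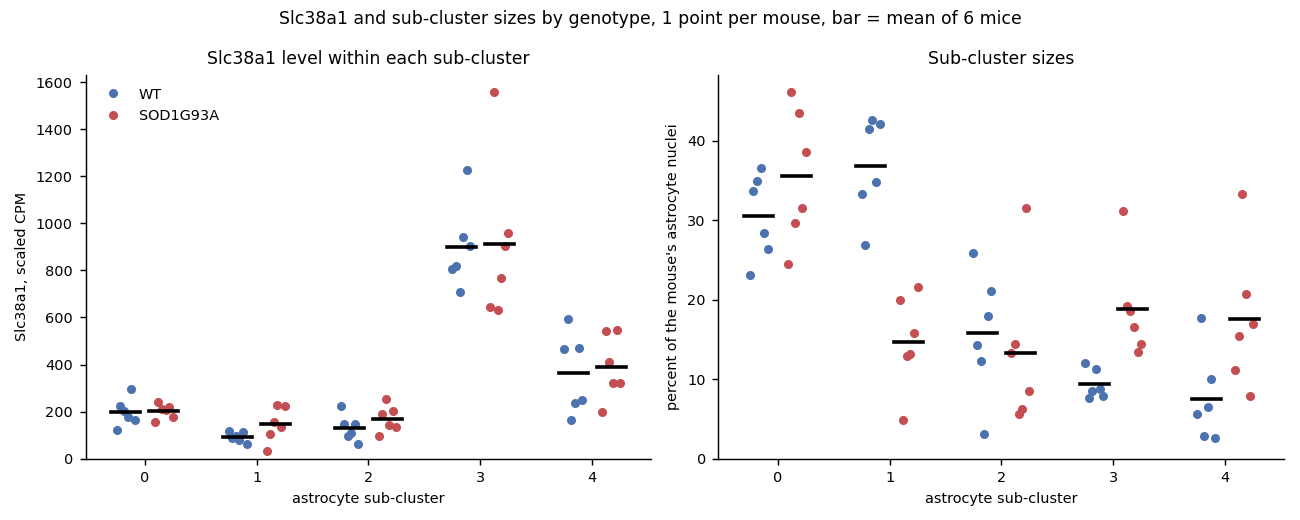
Slc38a1 in astrocytes by sub-cluster and genotype, in CPM with a point per mouse, beside the share of astrocyte nuclei in each sub-cluster in percent. Sub-cluster 3 had the highest level and made up 7.56% to 12.0% of nuclei in WT and 13.4% to 31.1% in SOD1G93A mice, while the levels of the genotypes within it overlapped.

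Within each sub-cluster Slc38a1 did not pass the test. In sub-cluster 3 it lay at 708, 860.0 and 1229 CPM in WT and at 631, 836 and 1557 CPM in SOD1G93A mice, with a log2 fold change of 0.00 (95% interval -0.35 to 0.36). In sub-cluster 1 the log2 fold change was 0.65 (-0.02 to 1.32), and in sub-clusters 0, 2 and 4 it was 0.02, 0.22 and 0.12. When the level of each sub-cluster was weighted by the same fixed shares in every mouse, the ratio of SOD1G93A to WT was 1.10, with an exact two-sided permutation p of 0.4375 over the 6 pairs, not adjusted over the members. With the shares as they occurred the ratio was 1.50, with SOD1G93A higher in 6 of 6 pairs. That count alone fixes the exact permutation p at 0.03125, the smallest that 6 pairs allow, so this p is no separate support for the call. This p was also not adjusted over the members. In the limma fit without sub-cluster 1 the log2 fold change was 0.24 (FDR 0.851), and 0.0538% of all genes were called. Without sub-cluster 3 it was 0.38 (FDR 0.317), with 0.953% of genes called. Without sub-cluster 0, 2 or 4 it was 0.70, 0.52 and 0.61 (limma FDR 0.0241, 0.0293 and 0.0155), with 5.55%, 5.34% and 2.11% called. The calls over all genes thus also depended on which sub-cluster was left out. Because the sub-clusters were formed on expression in these same nuclei, neither the weighting nor these fits can tell shares apart from levels.

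Marker levels also moved with genotype in the astrocyte nuclei. The astrocyte markers Aqp4, Aldh1l1 and Gfap summed to 867 to 1123 CPM in WT and 1672 to 2225 CPM in SOD1G93A mice, and 2 of 3 were called. The 3 did not move alike. In sub-clusters 0 and 1 the log2 fold changes were -0.10 and -0.15 for Aldh1l1, not called, against 0.86 and 1.15 for Gfap and 0.41 and 0.51 for Aqp4. The oligodendrocyte marker Mbp lay at 633 to 899 CPM in WT and 760.5 to 1412 CPM in SOD1G93A mice, higher in 6 of 6 pairs (limma FDR 0.0247), while Mog, at 32.4 to 57.6 and 28.6 to 67.4 CPM, was higher in 3 of 6 pairs and not called. The neuronal markers Grin1, Rbfox3 and Camk2a summed to 103 to 209 CPM in WT and 143 to 244 CPM in SOD1G93A mice, higher in 6 of 6 pairs, with 0 of 3 called by limma. The median share of mitochondrial UMIs per astrocyte nucleus was 0.570% to 1.31% in WT and 1.12% to 2.33% in SOD1G93A mice. Their part in the Slc38a1 difference was not tested.

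Within sub-clusters, 31 tests of members gave 0 calls with limma, edgeR or DESeq2, against 0.0595% of all gene tests there, and 4 had an unadjusted p below 0.05. Of these, Slc1a2 in sub-cluster 3 differed by 0.31 on the log2 scale (limma FDR 0.317) and was higher in SOD1G93A in 6 of 6 pairs, as were 1.83% of genes there. Its levels there were 4192, 6153 and 7964 CPM in WT and 6326, 7366 and 8376 CPM in SOD1G93A mice, which overlapped. The other 3 were Slc1a3, with log2 fold changes of -0.36 in sub-cluster 0, 0.76 in sub-cluster 2 and -1.0 in sub-cluster 4. In sub-cluster 0 it lay at 479.7 to 613 CPM in WT and 355 to 507 CPM in SOD1G93A mice, lower in SOD1G93A in every pair, as were 1.99% of genes there. With fixed sub-cluster shares the Slc1a3 ratio over all astrocytes was 0.803, with an exact permutation p of 0.0625, and with the shares as they occurred it was 0.954, with an exact permutation p of 0.5625 (n = 6 pairs). Neither p was adjusted over the members. In sub-cluster 2 Slc1a3 was higher in SOD1G93A in 5 of 6 pairs and in sub-cluster 4 in 2 of 6, with overlapping ranges in both and as few as 3 nuclei in a mouse. None of these passed, and a difference of the effect between sub-clusters was not tested.

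**Figure D5:**
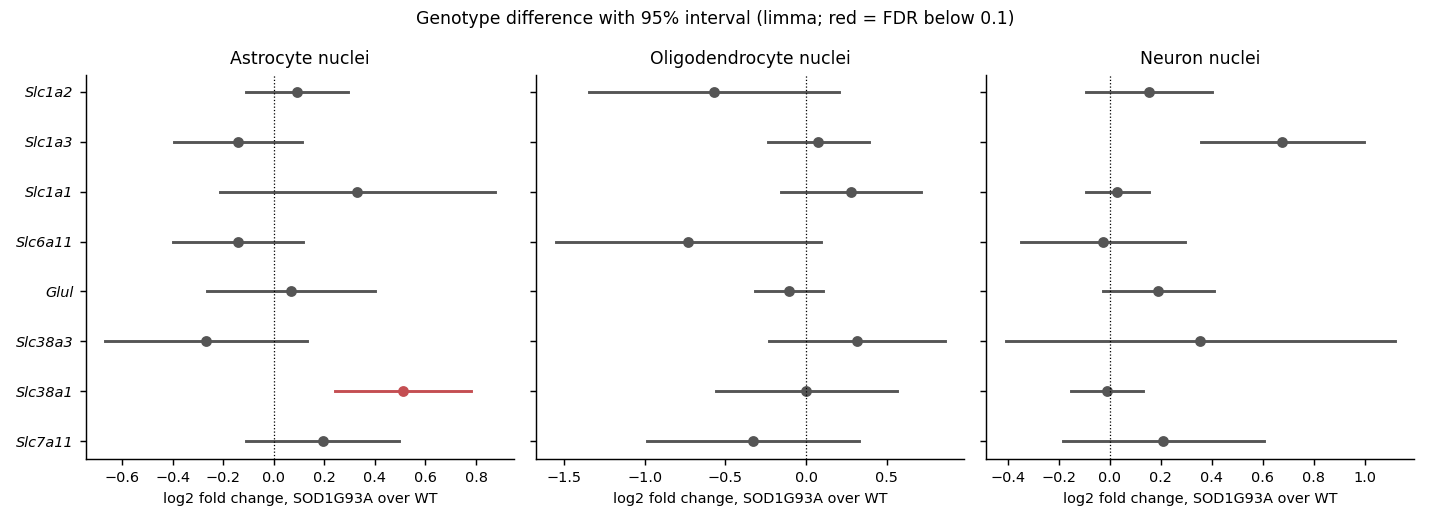
Log2 fold change of SOD1G93A over WT for the 8 members in astrocytes, oligodendrocytes and neurons, as points with 95% intervals from limma (n = 6 against 6 mice), with calls in red. Slc38a1 in astrocytes, at 0.51, was the single call, and Slc1a3 in neurons lay at 0.68 without a call.

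Across the 10 cell types there were 57 tests of members and 1 call, Slc38a1 in astrocytes, beside 0.568% called among all 68984 gene tests. A further 4 had an unadjusted p below 0.05. All 8 members were tested in astrocytes, oligodendrocytes and neurons, 7 in microglia, 6 each in OPC, endothelial and Schwann and meningeal nuclei, 4 in motor neurons, and 2 each in ependymal cells and fibroblasts.

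Slc38a1 was also higher in SOD1G93A motor neurons, short of the threshold. It lay at 52.2, 74.6 and 104 CPM (lowest, median and highest) in WT and at 99.5, 122 and 172 CPM in SOD1G93A mice. The groups overlapped by a narrow margin, and 6 of 6 pairs had the higher value in SOD1G93A, as for 2.5% of genes there. The log2 fold change was 0.67 (95% interval 0.20 to 1.13) with a limma FDR of 0.146. Motor neurons numbered 67 nuclei, and 3.07% of the genes tested in them were called. The SOD1G93A female of pool C gave 1 nucleus with 27658 UMIs, and its Slc38a1 value rests on 4 UMIs.

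In neurons, where 0.0255% of genes were called, Slc1a3 lay at 4.80, 6.57 and 10.8 CPM in WT and at 7.45, 10.4 and 16.5 CPM in SOD1G93A mice. Its log2 fold change was 0.68, higher in 5 of 6 pairs, with a limma FDR of 0.339. It was found in 0.729% of neuronal nuclei thinned to 1000 UMIs, and the part of free RNA in this level was not tested. Slc1a3 also had the lowest unadjusted p among members in the dorsal excitatory and dorsal inhibitory neurons, at log2 fold changes of 0.78 and 0.71 with limma FDRs of 0.312 and 1.00. Over the 9 neuron sub-types, 48 tests of members gave 0 calls with limma, edgeR or DESeq2, beside 0.0252% of all gene tests, and 6 had an unadjusted p below 0.05.

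In OPC, where 0.0411% of genes were called, Slc1a2 differed by -1.19 on the log2 scale, with a limma FDR of 0.360. The WT mice lay at 381, 559 and 748 CPM and the SOD1G93A mice at 91.7, 297 and 1013 CPM, the highest value resting on 15 UMIs. Oligodendrocytes had no call among 8 members with limma, beside 0.0475% of genes. Slc1a2 lay at 263, 423 and 570.1 CPM in WT and at 144, 317 and 442 CPM in SOD1G93A mice, and Slc6a11 had a log2 fold change of -0.73 with an unadjusted limma p of 0.0745. In microglia, where 0.0759% of genes were called, Slc7a11 had a log2 fold change of 0.79 with an unadjusted limma p of 0.0399 and was not called.

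Whether the genotype effect differed between cell types was fitted for astrocytes against oligodendrocytes and against neurons. No member was called in either with limma, beside 0 of 8773 genes for oligodendrocytes and 0.994% of 9256 genes for neurons. Against neurons, the Slc38a1 effect was larger in astrocytes by 0.52 on the log2 scale (95% interval 0.24 to 0.81, limma FDR 0.105), and the Slc1a3 effect was more negative by -0.76 (FDR 0.137). The neuronal level of Slc1a3 was low, at a mean of 9.33 CPM. Against oligodendrocytes the estimates were 0.66 for Slc1a2, 0.64 for Slc6a11, 0.61 for Slc38a1 and 0.59 for Slc7a11, with limma FDRs of 0.664, 0.666, 0.666 and 0.582. Glul was at 0.16, and Slc38a3, Slc1a3 and Slc1a1 went the other way, at -0.54, -0.23 and -0.10.

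Females and males were compared over both genotypes. Of 57 tests over cell types, 2 members were called, beside 0.159% of all gene tests, and both were in microglia, where 0.434% of genes were called. Microglia numbered 223 nuclei, with 5 to 41 per mouse, which limits these values. Slc1a2 was higher in females, at 321 to 468 CPM against 131 to 337 CPM in males (n = 6 each), with a log2 difference of 0.76 (95% interval 0.46 to 1.06) and a limma FDR of 0.0275. Slc6a11 was at 39.5 to 93.8 CPM in females and 18.3 to 69.8 CPM in males, with 0.77 (0.40 to 1.13) and a limma FDR of 0.0773. Both are astrocyte genes, and the summed astrocyte markers in the same microglial nuclei were 41.4 to 92.8 CPM in females and 17.3 to 34 CPM in males, without overlap. Their part in the difference was not tested. Without the deepest 10% of nuclei the log2 differences were 0.61 and 0.59 and neither was called (limma FDR 0.997 for both). Without the pool term they were 0.78 and 0.82 and also not called (limma FDR 0.176 and 0.641). The Slc6a11 call was further lost with DESeq2 (FDR 0.101), without a filter (limma FDR 0.192) and without the robust option (0.109). The Slc1a2 call was also lost without the WT female of pool C, the WT male of pool A, the SOD1G93A female of pool B or the SOD1G93A male of pool A (FDR 0.102 to 0.190). The Slc6a11 call was lost without any of those 4, the WT female of pool A or the male of either genotype of pool B (FDR 0.103 to 0.489).

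The sub-clusters and the neuron sub-types each held 1 call for sex among the members, beside 0.393% and 0.0928% of all gene tests there. In astrocyte sub-cluster 3, where 1.01% of genes were called between sexes, Slc1a2 was lower in females, at 4192 to 7539 CPM against 6855 to 8376 CPM, with a log2 difference of -0.40 and a limma FDR of 0.0479. The direction was not particular to sub-cluster 3. In sub-clusters 0 and 1 the log2 differences were -0.19 and -0.20 (unadjusted limma p 0.0148 and 0.0266), and in sub-clusters 2 and 4 they were -0.06 and -0.15, all without a call. In dorsal inhibitory neurons, where 0.114% of genes were called, Slc1a3 was higher in females, at 5.02 to 24.9 CPM against 2.27 to 8.32 CPM, with 1.10 and a limma FDR of 0.0753. Neither the call in sub-cluster 3 nor that in dorsal inhibitory neurons was made by edgeR, at FDRs of 0.346 and 0.256, or by DESeq2, at 0.789 and 0.912. Without the pool term the limma FDRs were 0.241 and 0.983. The Slc1a2 call was also lost without the deepest nuclei (0.433), and the Slc1a3 call with unscaled library sizes (0.101), without a filter (0.191) and without the robust option (0.112). The Slc1a2 call was lost without the WT female of pool B, the WT male of pool A or B, or the SOD1G93A female of pool A (FDR 0.127 to 0.203). The Slc1a3 call was lost without 9 of the 12 mice, all but the WT female of pool B, the WT male of pool C and the SOD1G93A male of pool B (FDR 0.106 to 0.608).

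A difference of the genotype effect between sexes was not called for any member. In cell types there were 0 calls with limma in 57 tests, beside 0.0058% of all gene tests. Over the astrocyte sub-clusters and the neuron sub-types, 31 and 48 such tests also gave 0 calls with limma, beside 0.0179% and 0.0782% of all gene tests. In the whole astrocyte type Slc7a11 had an unadjusted limma p of 0.00111, with a log2 fold change of 0.74 in females and -0.35 in males and an FDR of 1.00 for the difference. In sub-cluster 3 its difference was -2.17 (male minus female, limma FDR 0.371).

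A wider list of 35 genes of glutamate, GABA and glutamine handling, 34 of which were matched in the count table, gave the surroundings of the members. In astrocytes 23 of them were tested, 1 was called higher and 0 lower, with a median log2 fold change of 0.10 beside 0.02 over all genes. Of all genes in astrocytes, 1.38% were called higher and 0.909% lower, and the list's count is near that background. The call was Gja1, connexin 43, the main gap junction protein of astrocytes. It lay at 520.4, 598 and 742 CPM in WT and at 697, 815 and 1052 CPM in SOD1G93A mice, higher in 6 of 6 pairs, with a log2 fold change of 0.43 (95% interval 0.21 to 0.65) and a limma FDR of 0.0491. As for Slc38a1, it was not called without sub-cluster 1 (log2 fold change 0.25, FDR 0.793) or without sub-cluster 3 (0.34, FDR 0.221), where fewer of all genes were called. It was also lost without the WT female of pool A, the WT male of pool B or C, the SOD1G93A female of pool B or the SOD1G93A male of pool A or C (FDR 0.109 to 0.196).

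Others had an unadjusted limma p below 0.05 without a call. The glycine transporter Slc6a9 had a log2 fold change of -0.33, glutamate dehydrogenase Glud1 had -0.24 and the GABA-synthesising enzyme Gad1 had 0.56. In motor neurons, where 3.07% of all genes were called, 12 of the list were tested and Got1, the cytosolic aspartate aminotransferase, was called, at 13.1 to 33.1 CPM in WT and 28.2 to 70.2 CPM in SOD1G93A mice, with a log2 fold change of 1.11 (95% interval 0.46 to 1.75) and a limma FDR of 0.0830. It was called neither by edgeR (FDR 0.144) nor by DESeq2 (0.155), and was lost without 9 of the 12 mice, all but the WT female of pool B, the WT male of pool A and the SOD1G93A male of pool B (FDR 0.127 to 0.190), without the pool term (0.106) and without a filter (0.150). One of those mice, the SOD1G93A female of pool C, gave a single motor neuron nucleus. None of 28 tested in neurons, 25 in oligodendrocytes and 26 in microglia was called with limma, beside 0.0255%, 0.0475% and 0.0759% of all genes there.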

How the data were processed

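Nuclear RNA of 12 lumbar cords was sequenced by droplet capture. The authors made the deposited UMI counts with Cell Ranger 3.1 and STAR 2.5.1b on a pre-mRNA form of mm10, so intronic reads count, and R 4.0.3 and Seurat 4.0.3 followed, per the labels and the study's methods, with bcl2fastq 2.20.0.422 in the submitters' processing notes. They removed nuclei under 200 genes or over 10% mitochondrial UMIs, hashtag doublets and nuclei without a hashtag. Doublets within 1 mouse were not marked, so removing the deepest 10% of nuclei was an alternative. The deposited percent of mitochondrial UMIs and the cell type columns were used as given. Cell types came from clusters, markers and SingleR, and neuron sub-types from reference mapping.

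Here, counts were summed per mouse and cell type and fitted with limma 3.58.1 (voom, robust eBayes), after filterByExpr with a minimum count of 10 and TMMwsp scaling in edgeR 4.0.16, with the 4 combinations of sex and genotype and the pool in the design, under R 4.3.3. Calls were made at a Benjamini-Hochberg FDR below 0.1. Pools pair the mice, since each label names the pool a mouse was loaded in. Alternatives were edgeR's quasi-likelihood test, DESeq2 1.42.0, TMM or no scaling, no filter, a minimum count of 30, no pool term, eBayes without the robust option and leaving out each mouse. Leaving out each sub-cluster and fixing the sub-cluster shares were added after seeing the data. Levels between cell types are unscaled CPM, and likeness used log2(CPM + 1) over genes of at least 50 CPM in 1 type. The fits were tested on simulated counts without a pool effect, unlike the data. In the astrocyte run, 81 of 100 genes changed by 1 on the log2 scale were called, and 27 of 8817 unchanged genes were called (0.306%). Summaries used Python 3.11.15, pandas 2.3.3, numpy 2.4.6 and scipy 1.17.1. Depth limits each value: astrocyte sums held 294711 to 1743993 UMIs per mouse from 45 to 250 nuclei. Coordinates are those of GENCODE M21 on GRCm38.

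The members, the pathway list and the marker lists were chosen with earlier results of these data known. Named genes are the 8 members, the pathway genes called in astrocytes, oligodendrocytes, neurons or motor neurons with the 6 of smallest p in astrocytes, and the 3 genes most like each member. The deposited tables held no columns of other samples. Each mouse is a separate animal, and human SOD1 was not analysed here. A few list and marker genes are left out of the text.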

Additional observations from a re-analysis of the deposited data

Results flagged for a closer look

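Within the 48 groups of 6 mice examined for astrocytes, oligodendrocytes and neurons, 4 held a mouse far from the other 5 by Dixon's test, where chance gives about 1 in 20 groups. In SOD1G93A astrocytes, Slc38a1 was 433.5 CPM in the female of pool B and 250.0 to 277 CPM in the others. In SOD1G93A oligodendrocytes, Slc7a11 was 13.2 CPM in the male of pool B and 6.34 to 8.81 CPM in the others. In WT neurons, Slc1a1 was 67.2 CPM in the male of pool A against 72.3 to 74.2 CPM, and Slc38a1 was 105.2 CPM in the female of pool A against 89.4 to 94.2 CPM. Without the SOD1G93A female of pool B, the Slc38a1 genotype difference in astrocytes was no longer called, at a limma FDR of 0.175.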

How the results depend on the processing

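Counts of members called are given with the percent of all gene tests called under the same setting. With no replicate block (the fit without the pool term), the count went from 1 to 0 in astrocytes, where calls over all genes went from 214 to 105 (51 higher, 54 lower). It also went from 1 to 0 over the cell types (0.568% to 0.225%) and from 4 to 0 for sex and its interaction with genotype (0.0968% to 0.0505%). In astrocytes DESeq2 called 146 genes (49 higher, 97 lower), 354 were called without the deepest nuclei, and 1 member was called in both. The count there was 0 without sub-cluster 1 (0.0538%) or 3 (0.953%), where far fewer of all genes were called too, and 0 to 1 with a mouse left out. Over the cell types it was 2 with unscaled library sizes (0.731%), without a filter (0.351%) and without the deepest nuclei (1.28%), and 0 to 2 with a mouse left out (0.205% to 0.915%). Over the sub-clusters the count of 0 became 3 without a filter, where 7.71% of all tests were called against 0.0595%, and 0 to 1 with a mouse left out (0.0414% to 0.302%). Over the neuron sub-types it was 0 to 1 with a mouse left out (0.0237% to 0.133%). For sex and its interaction the 4 calls became 5 without a filter (0.363%), 3 with unscaled library sizes (0.0964%) or a minimum count of 30 (0.115%), 2 with edgeR (0.0698%) and without the robust option (0.0881%), 1 with DESeq2 (0.0887%), 0 without the deepest nuclei (0.0689%) and 0 to 4 with a mouse left out (0.0733% to 0.185%). For the difference between cell types the count of 0 became 1 with unscaled library sizes (0.422%, against 0.510%), a minimum count of 30 (1.10%) and without the robust option (0.544%), 2 without the deepest nuclei (0.731%), and 0 to 1 with a mouse left out (0.137% to 1.61%). EdgeR and DESeq2 were not run for it. The cause of these changes was not tested. Slc38a1 kept its direction in astrocytes with each mouse left out, at log2 fold changes of 0.41 to 0.58. Glul in astrocytes ran from -0.058 to 0.228 with a mouse left out, turning to -0.025 without the WT female of pool B, -0.012 and -0.026 without the SOD1G93A females of pools B and C, and -0.058 without the SOD1G93A male of pool A. It was -0.053 without sub-cluster 1, and Slc1a3 turned to 0.0052 without sub-cluster 0 and 0.015 without sub-cluster 4. In motor neurons Slc38a1 was called with unscaled library sizes (limma FDR 0.0902), in neurons Slc1a3 without the deepest nuclei (0.0825), and in OPC Slc1a2 without a filter (0.0116). Astrocytes gave 45 nuclei in the smallest mouse, and sub-clusters 2 and 4 as few as 3, which limits the sub-cluster values.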

Other observations

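In astrocytes the genotype effects of Slc7a11 and Slc1a1 had opposite signs in the sexes, though neither difference was called. For Slc1a1 the log2 fold change was 1.13 in males (limma FDR 0.176), and the male minus female difference was 1.61 (unadjusted limma p 0.00571, FDR 1.00, n = 3 against 3 in each sex). Slc1a1 was low in astrocytes, at a mean of 19.7 CPM with a UMI in 132 of 1555 nuclei, which limits these values. Of the tests of this difference over the sub-clusters and the neuron sub-types, 5 and 2 had an unadjusted limma p below 0.05.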
